A study of Mus musculus with 2 samples.

Results

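A small set of cells carrying RNA of the CD8 co-receptor was found among T cells sorted for CD4. They were chosen as barcodes with 200 genes or more and no more than 10% mitochondrial UMIs (unique molecular identifiers, 1 per captured RNA molecule), with at least 2 UMIs of Cd8a and Cd8b1 together and at least 1 UMI of Cd3d, Cd3e or Cd3g. Of 6859 kept barcodes, 6686 had a CD3 UMI and 51 were Cd8-expressing cells. There were 33 among 4800 CD3-positive cells of the control library (0.688%, 95% Clopper-Pearson interval 0.474 to 0.964) and 18 among 1886 of the Id2-deficient library (0.954%, 0.567 to 1.50). Intervals here and below cover counting error only. They were compared with the CD3-positive cells of the same library that had no Cd8 UMI, 4644 control and 1816 Id2-deficient cells, called Cd8-negative cells below.

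The study sequenced single CD4+ YFP+ cells of mice with experimental autoimmune encephalomyelitis, induced with MOG/CFA and sampled at the peak of disease. The control library came from Il17Cre/R26YFP mice and the Id2-deficient library from Il17Cre/Id2f/f/R26YFP mice. Both genotypes carry Cre driven from Il17 and a Cre-activated YFP at R26, so YFP marks cells in which the Cre has acted, whether or not they still make IL-17, and in the second genotype the same Cre acts on the floxed Id2. Sample titles name draining lymph node, the tissue field names spleen and lymph node, and the protocol names spleen; the age of the mice and how many were pooled are not given in the sources used here. With 1 library per genotype, a difference between the libraries cannot be told apart from a difference between 2 preparations, and no test over replicates was possible.

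Developing T cells that recognise MHC class I keep CD8 and become cytotoxic T cells, whereas those that recognise MHC class II keep CD4 and become helper cells. Zbtb7b (ThPOK) holds the helper fate and represses the Cd8 genes, and Runx3 silences Cd4 in the CD8 lineage. The co-receptor on conventional CD8 T cells is a pair of CD8 alpha and CD8 beta, while CD8 alpha pairs are also found on gamma delta T cells, innate-like lymphocytes and some dendritic cells. In a droplet library a barcode with RNA of both lineages can also be 2 cells captured together.

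The median kept barcode had 5453 UMIs in the control library, and the median Cd8-negative cell had 5447.5 and 6352.5 UMIs in the control and Id2-deficient libraries. The limits on genes and mitochondrial UMIs removed 525 Id2-deficient barcodes, all of them over the mitochondrial limit, and 12 control barcodes, of which 3 were over that limit and 9 had too few genes. None of the 2 control and 276 Id2-deficient removed barcodes with a CD3 UMI met the Cd8 rule. Only 3 barcode sequences occurred in both libraries, and 1 of these belonged to a Cd8-expressing cell, in the Id2-deficient library. Without these barcodes the Id2-deficient share was 0.903%. B cells, which should lack both co-receptors, were chosen by at least 2 UMIs of Cd79a, Cd79b and Ms4a1 together and no CD3 UMI. No Cd8 UMI was found in 39 control and 33 Id2-deficient B cells. Leaving out barcodes with a CD3 UMI also removes barcodes with T cell RNA, so this absence was partly set by the choice. Of those B cells, 2.56% and 0% had a Cd4 UMI, at median depths of 3655 and 4954 UMIs.

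The Cd8 RNA came mostly from Cd8b1, the CD8 beta chain. The Cd8a gene lies on chromosome 6 (GRCm38, 71373427 to 71379173) and Cd8b1 lies 35.9 kb upstream of it (71322788 to 71337494), both on the plus strand. The Cd8b1 count ran from 0 to 21 UMIs per cell in the control library, with a median of 4, and from 0 to 20 in the Id2-deficient cells, whose median was 4.5. Cd8a reached 20 and 9 UMIs with medians of 1 and 2.5. Both chains were found in 21 of 33 control cells and 11 of 18 Id2-deficient cells. A further 11 and 5 had Cd8b1 alone, and 1 and 2 had Cd8a alone. These counts describe the choice of the cells and were not tested.

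Cells just inside the threshold were unlike those well above it. In the control library 9 cells had exactly 2 Cd8 UMIs, 4 had 3 or 4, and 20 had at least 5. In the Id2-deficient library the counts fell into separate ranges, with 8 cells at 2 UMIs, 0 at 3 or 4, and 10 at 5 or more. Just outside it, 123 control (2.56%) and 52 Id2-deficient (2.76%) CD3-positive cells had 1 Cd8 UMI. Of those with 1 UMI, 75.6% and 78.8% had a Cd4 UMI. Of the cells with 2 Cd8 UMIs, 5 of 9 and 6 of 8 had one, and of the cells with at least 5, 5 of 20 and 2 of 10. The division at 5 UMIs was made after the values were seen.

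**Figure D1:**
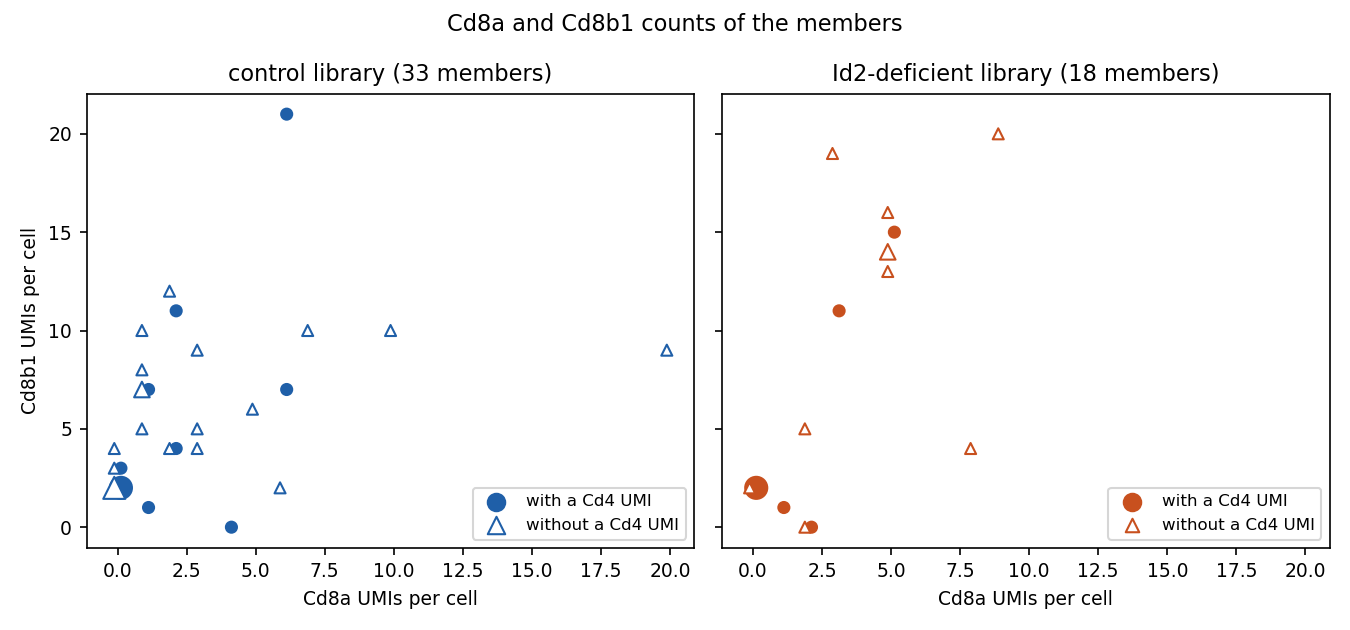
Cd8a UMIs (x axis) and Cd8b1 UMIs (y axis) of each Cd8-expressing cell in the control (left, 33 cells) and Id2-deficient library (right, 18 cells). Filled circles are cells with a Cd4 UMI, open triangles cells without, shifted sideways a little, and a larger symbol stands for several cells at the same place. Most cells high in Cd8b1 are triangles, and in the Id2-deficient library no cell has 3 or 4 Cd8 UMIs in all.

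Cd4 RNA was less frequent in the Cd8-expressing cells than in their Cd8-negative neighbours, although they came from a CD4 sort. A Cd4 UMI was found in 12 of 33 control cells (36.4%, 20.4 to 54.9) against 55.4% of Cd8-negative cells, and in 8 of 18 Id2-deficient cells (44.4%, 21.5 to 69.2) against 72.1%. In counts per 1000000 UMIs (CPM) summed over cells, Cd4 stood at 126 against 163 in the control library, a log2 ratio of -0.37 whose interval (-0.87 to 0.08) takes in 0. Among Id2-deficient cells it stood at 104 against 252 CPM, a log2 ratio of -1.27 (-1.99 to -0.65). The control ratio was -0.89 without the 5% of barcodes with the most UMIs and -0.98 as a mean of per-cell CPM, and the Id2-deficient ratio was -2.47 at 3 or more Cd8 UMIs. Every barcode was also thinned to 2000 UMIs before the rule was applied, so that deep barcodes were not favoured. Thinning lowers the Cd8 counts too, so the same rule is stricter and cells with few Cd8 UMIs meet it less often. The part of this in the Cd4 counts was not tested. At this depth 17 control and 8 Id2-deficient cells still met the rule. None of these had a Cd4 UMI, against 26.9% and 38% of Cd8-negative cells at the same depth. Counts of 0 in 17 and in 8 cells allow up to 17.6% and 37.5% of cells with a UMI, taking 3 counts as the limit here and below.

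The CD4 lineage factor had no UMI in control cells with both CD8 chains, nor in any Id2-deficient cell. Zbtb7b had a UMI in 0 of 21 control and 0 of 11 Id2-deficient cells with both chains, compared with 21.1% and 28.4% of Cd8-negative cells. In all, Zbtb7b was found in 5 of 33 control cells, each of them with Cd8b1 alone. It was found in 0 of 18 Id2-deficient cells, which allows up to 16.7% of cells with a UMI. The limit for the 11 Id2-deficient cells with both chains is wider than that. Cd40lg, which encodes the ligand by which helper cells activate B cells, was found in 10 of 33 control cells against 36.0% and in 2 of 18 Id2-deficient cells against 44.5%. Zbtb7b or Cd40lg occurred in 3 of 21 and 0 of 11 cells with both chains, and in 7 of 11 and 2 of 5 cells with Cd8b1 alone.

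Genes are counted below as higher or lower when their CPM differed at least 2-fold and the interval of the ratio left out 1. A gene counted as measured with at least 20 UMIs over the Cd8-expressing and Cd8-negative cells of a library, and a gene at 0 was set to 3 counts. By this rule 1.49% of 11714 measured genes were higher and 1.55% lower in the control cells, and 1.7% of 10820 were higher and 2.88% lower in the Id2-deficient cells. Of 8 CD4 lineage genes, 0 were higher or lower in the control cells, and their median log2 ratio was -0.76 against 0.10 over all measured genes. In the Id2-deficient cells 7 of the 8 were lower (Cd4, Cd40lg, Ctla4, Gata3, Izumo1r, Tnfrsf4 and Zbtb7b), with a median of -1.53 against -0.01. Zbtb7b is at 0 there and enters that median as a bound.

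Runx3 RNA was spread more widely over the Cd8-expressing cells, but its level did not stand apart. It had a UMI in 66.7% of control and 55.6% of Id2-deficient cells, against 42.0% and 33.1% of Cd8-negative cells, and in 81.0% and 63.6% of cells with both chains. Its CPM was 126 against 101 and 88.5 against 71.0, and thinned to 1000 UMIs per cell the shares were 9.09% against 9.13% and 5.56% against 7.02%. Runx3 also had a UMI in 15.4% and 27.3% of B cells.

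Nearly all of these cells carried RNA of an alpha beta T cell receptor and none carried the delta chain. Trac, the alpha constant region (chromosome 14, 54220521 to 54224206), was found in 32 of 33 control and 17 of 18 Id2-deficient cells, against 79.5% and 92.8% of Cd8-negative cells. Trdc, the delta constant region (chromosome 14, 54142851 to 54148868), was found in 0 of 33 and 0 of 18 cells, against 18.8% and 9.20%. The counts of 0 allow up to 9.09% and 16.7% of cells with a UMI, the second of which is above the share in Cd8-negative cells. Trac stood at 665 CPM against 563 in the control library, and at 619 against 1006 in the Id2-deficient library. Trbc1, a beta constant region, stood at 1098 against 785 and at 791 against 1363 CPM, and Trbc2 at 1886 against 1816 and at 1999 against 2500. Trbc1 and Trbc2 are near-identical copies, so their split is uncertain. Blk, a kinase of B cells and IL-17-making gamma delta T cells, was also at 0 in all 51 cells, against 67.4 and 33.8 CPM. Of the gamma delta list 8 of 15 measured genes were lower in the control cells and 7 of 14 in the Id2-deficient cells, and none were higher.

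Several genes of cytotoxic lymphocytes were higher in these cells. In the control library 11 of the 21 measured genes of the cytotoxic list were higher, none were lower, and the list's median log2 ratio was 1.60. Among the Id2-deficient cells 9 of 14 were higher and 0 lower, and the median was 2.32, in which 2 genes at 0 enter at their bound. The list was chosen with earlier results of these data known. Leaving out the cell with the most cytotoxic UMIs in each library gave medians of 0.82 and 2.27, so 1 control cell moved the control median by more than 1.5 times. The medians of the genes' lower bounds were 0.37 and 0.96 with those cells and -0.39 and -3.32 without them. Of the UMIs of the list, 34.3% of the control and 82.5% of the Id2-deficient ones were in the cell left out. On the CD8 lineage list, counted without Cd8a and Cd8b1, 4 of 9 measured genes were higher in the control cells (Ccl5, Ctsw, Klrd1 and Nkg7) and 6 of 8 in the Id2-deficient cells, where Klrc1 and Klrk1 joined them. All 15 Klrk1 UMIs of the Id2-deficient cells were in 1 cell.

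Nkg7 is a granule membrane protein of cytotoxic lymphocytes (chromosome 7, 43437073 to 43438249). It was found in 20 of 33 control cells (60.6%, 42.1 to 77.1) against 19.2% of Cd8-negative cells, with 493 against 152 CPM (log2 ratio 1.69, 1.45 to 1.93). In the Id2-deficient library it was found in 9 of 18 cells (50%, 26 to 74) against 0.771%, or 14 of 1816 cells, with 453 against 6.49 CPM (log2 ratio 6.13, 5.68 to 6.57). Thinned to 1000 UMIs per cell, the shares were 36.4% against 9.31% and 33.3% against 0.332%. Set between the libraries, the Nkg7 log2 ratio of Id2-deficient over control was -0.12 (-0.52 to 0.27) in Cd8-expressing cells and -4.55 (-4.88 to -4.25) in Cd8-negative cells. The first of these leans on few cells. Of the Id2-deficient cells with Nkg7, 1 held 30 UMIs and another 21, and none of the rest held more than 8. The ratio without the cell with 30 UMIs was not tested.

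Ctsw and Klrd1 showed the same direction in both libraries. Ctsw, a cathepsin of cytotoxic cells, stood at 215 against 64.1 CPM (log2 ratio 1.75) and at 141 against 9.20 (3.93), with a UMI in 72.7% and 38.9% of cells. Klrd1, the CD94 receptor, stood at 149 against 46.2 CPM (1.69) and at 72.9 against 19.2 (1.92), with a UMI in 45.5% and 50% of cells. By the rule used to name genes, which ranks each by the library nearer to no difference and leaves out genes for which 1 cell held at least 25% of the UMIs, Ctsw, Klrd1 and Tm6sf1 led. Tm6sf1 stood at 29.8 against 10.3 CPM and at 46.8 against 4.60. The genes next in rank included the ribosomal protein genes Rpl36a, Rpl13, Rps3a1, Rpl3, Rps2 and Rpl32, none of them 2-fold higher, and Hspe1, a mitochondrial chaperone, and Ms4a4b, a T cell surface protein.

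Gzma, a granzyme, rested on single cells. It had 78 UMIs in the control cells, 77 of them in 1 cell, and 106 in the Id2-deficient cells, all in 1 cell. The chemokine Ccl5 was found in 8 control cells, of which 5 held 24, 32, 114, 126 and 219 UMIs, and in 3 Id2-deficient cells, which held 14, 17 and 495. The control cell with the Gzma UMIs held the 219 UMIs of Ccl5, 6 of Gzmk, 7 of Cx3cr1 and 2 of Klrg1, with 7 of Cd8b1 and 1 of Cd8a. The Id2-deficient cell with Gzma held the 495 of Ccl5, 5 of Gzmk, 7 of Klrg1 and 3 of Eomes, with 2 of Cd8a and none of Cd8b1. Neither had a Cd4, Tmem176b or Cxcr6 UMI. Cx3cr1 was found in 4 control cells, and the most, 10 UMIs, were in another cell. Eomes, a transcription factor of memory CD8 T cells, was found in 1 of 33 control and 4 of 18 Id2-deficient cells, against 1 of 4644 and 0 of 1816 Cd8-negative cells.

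**Figure D2:**
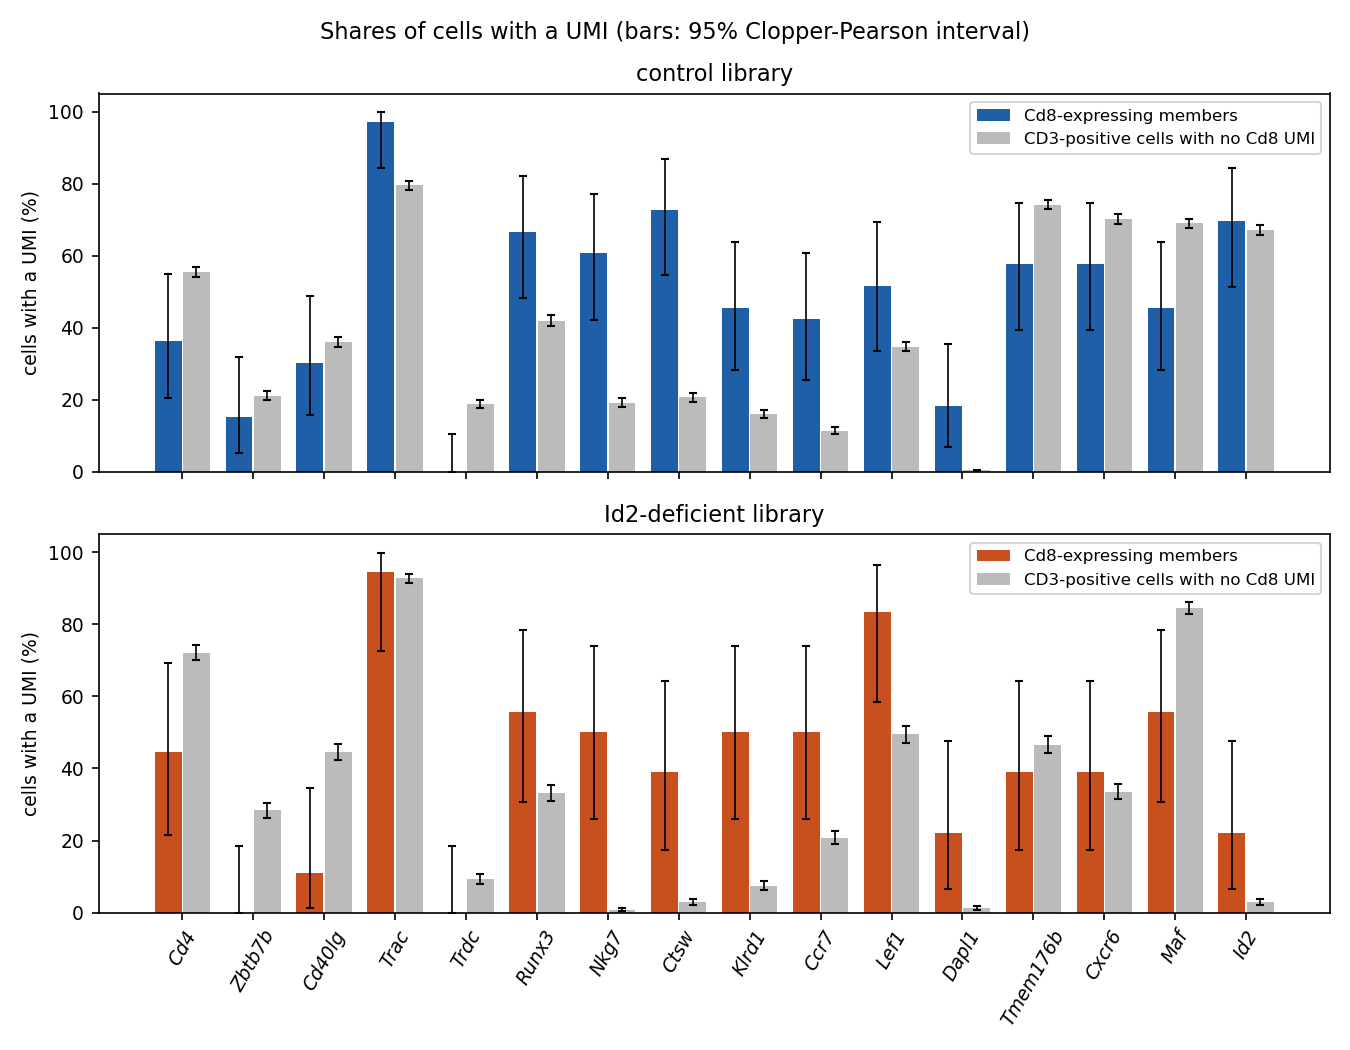
Percent of cells with at least 1 UMI of each gene (y axis) in Cd8-expressing cells (coloured) and Cd8-negative cells (grey), control library above and Id2-deficient library below; error bars are 95% Clopper-Pearson intervals, which cover counting error only. Nkg7, Ctsw, Klrd1, Ccr7 and Dapl1 are more frequent in Cd8-expressing cells of both libraries, and Trdc has no bar for them.

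Some genes of lymphoid homing and quiescence, which mark naive T cells, were also higher, though most of the list passed in neither direction. Of the 18 genes of the naive list, 5 were higher and 0 lower in each library, among them Ccr7, Ccr9, Dapl1 and Igfbp4 in control cells, and Bach2, Ccr9, Dapl1 and Igfbp4 in Id2-deficient cells. The other 13 did not pass. The list's median log2 ratios were 0.21 and 0.53, against 0.10 and -0.01 over all measured genes, and the medians of its genes' interval bounds, -0.28 to 1.29 and -0.09 to 1.14, lie on both sides of 0. Ccr7, the chemokine receptor of the T cell zone, was found in 14 of 33 against 11.4% and in 9 of 18 against 20.8%. Its level was 89.3 against 24.0 CPM in the control library (log2 ratio 1.89, 1.28 to 2.45) and 72.9 against 41.0 in the Id2-deficient library (0.83, -0.05 to 1.59), an interval that takes in 0. Ccr7 also had a UMI in 15.4% and 33.3% of B cells.

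Dapl1 and Igfbp4 were the sharpest of them. Dapl1 (chromosome 2, 59484653 to 59505020) was found in 6 of 33 control cells against 15 of 4644, and in 4 of 18 Id2-deficient cells against 22 of 1816. Igfbp4, an IGF-binding protein, was found in 7 of 33 against 10 of 4644 and in 4 of 18 against 7 of 1816. Every cell with Dapl1 or Igfbp4 lacked a Cd4 UMI, and none had only 2 Cd8 UMIs. Of the Dapl1 UMIs of the Id2-deficient cells 67.5% were in 1 cell, and of the Igfbp4 UMIs 40% and 50% were in 1 control and 1 Id2-deficient cell. Lef1 was found in 51.5% against 34.7% and in 83.3% against 49.5%, and Tcf7, which helper and memory cells also use, in 69.7% against 69.2% and 83.3% against 87.3%.

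Cytotoxic and naive genes occurred in the same cells. Nkg7 together with Ccr7 or Dapl1 was found in 10 of 33 control cells (30.3%, 15.6 to 48.7) against 35 of 4644 Cd8-negative cells (0.754%). The Id2-deficient counts were 7 of 18 (38.9%, 17.3 to 64.3) against 4 of 1816 (0.220%). Of the cells with this combination, 9 of 10 control and 7 of 7 Id2-deficient cells had both CD8 chains. This combination was chosen after the values were seen.

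Genes of the type 17 programme, the history for which the cells were sorted, were lower but not absent. Of 17 measured genes 7 were lower and 0 higher in the control cells (median log2 ratio -1.03), and 6 lower and 0 higher in the Id2-deficient cells (median -1.20), with 2 and 3 genes at 0 entering at their bound. Maf, a transcription factor of IL-17 and follicular helper cells, stood at 149 against 318 CPM (log2 ratio -1.10, -1.55 to -0.67) and at 203 against 569 (-1.49, -1.98 to -1.03). Cxcr6, a tissue homing receptor, stood at 265 against 444 (-0.75) and at 52.1 against 139 CPM (-1.42), the 52.1 from 10 UMIs. Cxcr6 had a UMI in 57.6% against 70.2% of control cells, but in 38.9% against 33.6% of Id2-deficient cells. Tmem176b, a membrane protein, was found in 57.6% against 74.1% and in 38.9% against 46.6% of cells. Tmem176a and Tmem176b overlap on opposite strands, and the sources used here do not state the strand used in counting. Il17a was at 0 in all 51 cells, against 2.84% and 1.98% of Cd8-negative cells, and the counts of 0 allow up to 9.09% and 16.7% of cells with a UMI, limits above those shares.

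Among the Cd8-expressing cells, Tmem176b and Cxcr6 were more frequent in those with Cd8b1 alone or with a Cd4 UMI, most clearly in the control library. Tmem176b or Cxcr6 was found in 11 of 11 control and 4 of 5 Id2-deficient cells with Cd8b1 alone, and in 10 of 21 and 5 of 11 cells with both chains. Over all Cd8-expressing cells the shares were 66.7% in control and 55.6% in Id2-deficient cells, against 84.5% and 56.6% of Cd8-negative cells. In the Id2-deficient library the intervals of both subsets (28.4 to 99.5 and 16.7 to 76.6) take in that 56.6%. The 11 control cells with neither gene all had both chains, and 10 of these 11 had no Cd4 UMI. Of 12 control cells with Cd4, 11 had Tmem176b, against 8 of 21 without Cd4. Among Id2-deficient cells the counts were 4 of 8 and 3 of 10. The cells with Cd4 were also deeper, with medians of 13043 against 5675 UMIs in control and 12874 against 8470.5 in Id2-deficient cells. The part of depth in these counts was not tested.

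**Figure D3:**
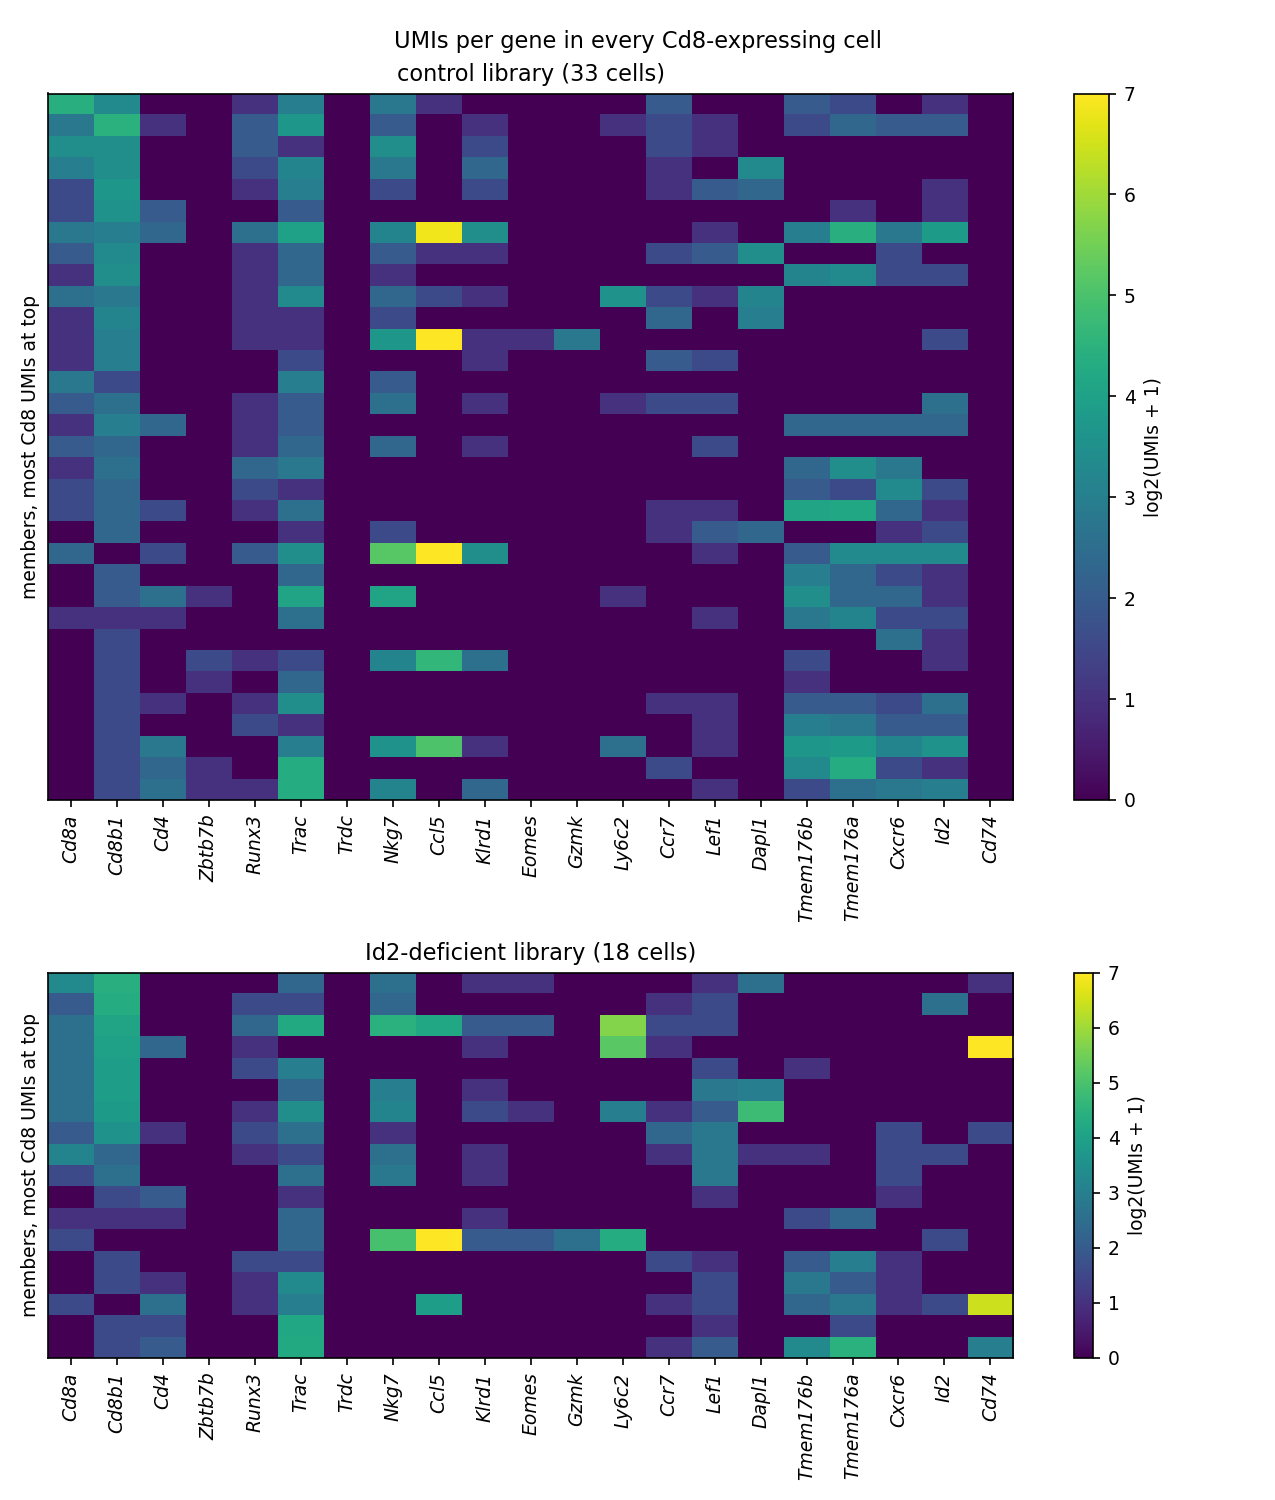
UMIs of 21 genes (columns) in each Cd8-expressing cell (rows, most Cd8 UMIs at the top), on a log2(UMIs + 1) scale whose colours end at 7, control library above and Id2-deficient library below. Dapl1 lies mostly in the upper rows, Tmem176a and Tmem176b mostly in the lower rows, and Ccl5 and Cd74 are bright in a few cells.

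Genes of other programmes were also lower in the Id2-deficient cells. Of 9 genes of the follicular helper list 6 were lower there (Bcl6, Cxcr5, Il21, Pdcd1, Tnfsf8 and Tox2) and 1 in the control cells (Pdcd1). Cxcr5, the follicle homing receptor, was found in 2 of 18 cells against 31.3% in the Id2-deficient library, and in 0 of 33 against 5.81% in the control library. Of 12 cell cycle genes 6 were lower in the Id2-deficient cells and 1 in the control cells. Mki67 or Top2a was found in 10 of 33 control cells (30.3%), 8 of which had a Cd4 UMI, against 21.7% of Cd8-negative cells. The Id2-deficient count was 3 of 18 (16.7%, 3.58 to 41.4), an interval that takes in the 20.5% of Cd8-negative cells. Besides those given above, the genes named as lowest in both libraries were Hif1a, Ifngr1, Srgn, Tnfrsf25, Cd28, Arl6ip1, Malat1 and Hspa5. Of these, Hif1a, a hypoxia factor, stood at 109 against 220 CPM (log2 ratio -1.01) and at 146 against 374 (-1.36). Zbtb16, a factor of innate-like T cells, was at 0 in all 51 cells, against a UMI in 2.82% and 2.42% of Cd8-negative cells. Ncr1, a natural killer cell receptor, and Rag1, a recombinase of thymocytes, were at 0 in the 51 cells and in every Cd8-negative cell.

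Median depth was higher in the cells with Cd4 than in those without, but the ranges overlapped. They were 3895 to 30158 UMIs with Cd4 and 4052 to 11959 without in the control library. In the Id2-deficient library they were 2985 to 20548 and 5336 to 16011. The Cd8-expressing cells had a median of 6258 UMIs in the control library, 1.15 times that of Cd8-negative cells, and 10280.5 in the Id2-deficient library, 1.62 times. The 12 control cells with Cd4 had a median of 13043 UMIs, 2.25 times that of Cd8-negative cells with Cd4, and the 8 Id2-deficient ones 12874, 1.96 times. The 21 and 10 cells without Cd4 had 5675 and 8470.5 UMIs, 1.11 and 1.45 times the median of Cd8-negative cells without Cd4. Of the 9 cells among the 5% of barcodes with the most UMIs, 5 control and 3 Id2-deficient cells had Cd4. A threshold on counts and the finding of a Cd4 UMI both favour deep barcodes, and their part in these ratios was not tested.

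Measures of 2 cells in 1 barcode gave mixed values. RNA of at least 2 Trbv segments, of which a cell usually expresses 1, was found in 5 of 33 control cells (15.2%, 5.11 to 31.9) against 3.49% of Cd8-negative cells, and in 4 of 18 Id2-deficient cells (22.2%, 6.41 to 47.6) against 4.68%. Between the lower and upper quartile of these cells' depth, the counts were 2 of 17 (11.8%, 1.46 to 36.4) and 2 of 8 (25%, 3.19 to 65.1), intervals that take in the 3.28% and 6.27% of Cd8-negative cells. At least 2 Trav segments were found in 1 of 33 control cells (3.03%) against 3.98%, and in 2 of 18 Id2-deficient cells (11.1%, 1.38 to 34.7) against 7.93%. Within that range of depth the Trav counts were 0 of 17 and 1 of 8, against 3.49% and 8.89%. In the control library 4 of the 5 cells with at least 2 Trbv segments had Cd4, and in the Id2-deficient library 1 of the 4. The median Scrublet doublet score was 0.135 and 0.0801 in cells with Cd4, against 0.0606 and 0.0788 in Cd8-negative cells with Cd4. In cells without Cd4 it was 0.0313 and 0.0596, and over all Cd8-negative cells 0.0535 and 0.0732. Only 2 control and 0 Id2-deficient cells were among the 4% of barcodes with the highest score. Whether any single barcode held 2 cells was not tested.

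**Figure D4:**
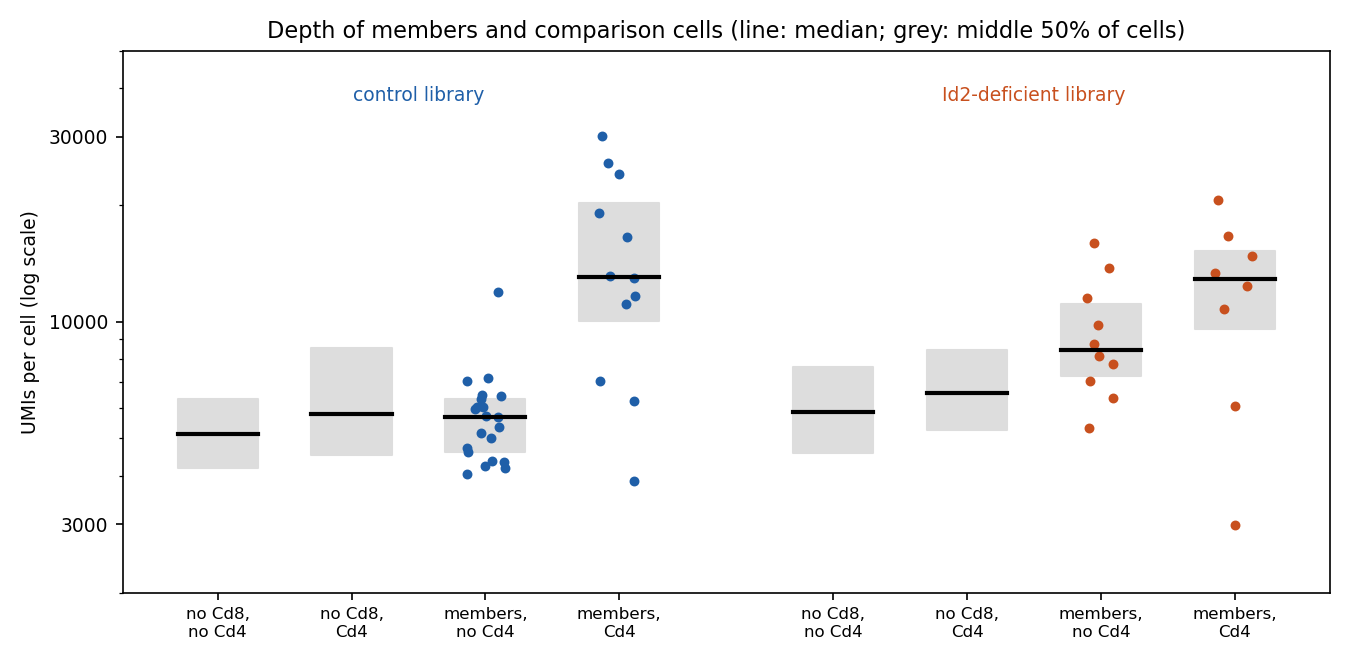
UMIs per cell on a log scale (y axis) for Cd8-negative cells without and with a Cd4 UMI and for Cd8-expressing cells (members) without and with a Cd4 UMI, control library on the left and Id2-deficient library on the right. Black lines are medians, grey boxes the middle 50% of cells, and points single Cd8-expressing cells; the medians of cells with both Cd8 and Cd4 are 13043 and 12874 UMIs.

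A pair of Id2-deficient cells went against the label of T cells with Cd8. One held 46 UMIs of Siglech, a marker of plasmacytoid dendritic cells, 177 of Cd74 and 94 of H2-Aa, both of the MHC class II pathway, and 71 of Tyrobp, with 5 of Cd8a, 15 of Cd8b1 and 4 of Cd4. It had 0 UMIs of Trac, Trbc1 and Trbc2 and a single CD3 UMI, of Cd3d, and it is the cell whose barcode occurs in both libraries. The other held 88 of Cd74, 31 of H2-Aa and 71 of Cst3, an antigen-presenting cell gene, together with 7 of Trac, 15 of Trbc2, 5 of Cd4 and 2 of Cd8a. With these cells included, 7 of 11 measured dendritic cell and macrophage genes were higher in the Id2-deficient cells. In the control cells 5 of 11 were lower, and 13 of the 15 genes on the list, Cd74, H2-Aa and Siglech among them, were at 0. A limit of at least 10 UMIs of that list also takes in another cell, with 12 such UMIs, 18 of Trac and 3 of Cd4. Without barcodes past that limit, which leaves 15 of the 18 cells, the Id2-deficient share was 0.814%, and 33.3% of the cells left had Cd4.

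Between the libraries, Id2 RNA was lower in the Id2-deficient Cd8-expressing cells, and its log2 ratio was nearer to 0 than in Cd8-negative cells. Id2 (chromosome 12, 25093799 to 25097140), an inhibitor of E protein transcription factors that effector CD8 T cells use, was found in 23 of 33 control cells and 4 of 18 Id2-deficient cells. Its level was 261 and 57.3 CPM, a log2 ratio of -2.19 (-3.25 to -1.27). In Cd8-negative cells it was 337 and 12.2 CPM, a log2 ratio of -4.79 (-5.02 to -4.56), and 67.1% and 2.86% had a UMI. The 57.3 CPM rest on 11 UMIs, 5 of them in 1 cell. Without the 5% of barcodes with the most UMIs the log2 ratio was -1.20, and with barcodes thinned to 2000 UMIs before the rule it was 0.087 (-2.54 to 2.31), from 6 control and 3 Id2-deficient UMIs. Of the 4 cells with Id2, 3 were among the 10 without Cd4 and 1 among the 8 with Cd4. The 1 with Cd4 held 2 Id2 UMIs and is the cell described above with 88 UMIs of Cd74 and 31 of H2-Aa. Without barcodes with at least 10 dendritic cell and macrophage UMIs the log2 ratio was -2.04 (-3.22 to -1.04). Id2 had no UMI in the 33 Id2-deficient B cells, whose median depth was 4954 UMIs, and this 0 was not set against control B cells. The sources used here do not state which exons are deleted, so a 3' UMI may not report the deletion. Id3, the related inhibitor, was found in 15.2% and 55.6% of Cd8-expressing cells, and in 13.2% and 56.9% of Cd8-negative cells.

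Between the libraries, several naive genes were higher and several type 17 genes lower in the Id2-deficient Cd8-expressing cells, and counts of a similar size were found in Cd8-negative cells. Whether these counts differ between the sets was not tested. Of 3053 genes measured in the 51 cells, 4.03% were higher and 7.83% lower in the Id2-deficient library, against 7.49% and 5.28% of 12278 in Cd8-negative cells. Of 15 measured naive genes 6 were higher, Actn1, Ccr9, Lef1, Satb1 and Txk among them, and 1 was lower (Klf2), against 6 of 18 higher and 3 lower in Cd8-negative cells. Lef1, a transcription factor of naive T cells, stood at 229 against 86.0 CPM (log2 ratio 1.41), with 0.69 in Cd8-negative cells. Klf2, which drives exit from lymphoid organs, stood at 484 against 1165 (-1.27), with -1.71. Of 7 measured type 17 genes 4 were lower (Ltb4r1, Serpinb1a, Tmem176a and Tmem176b), and the same 4 of 17 were lower in Cd8-negative cells. Tmem176b stood at 135 against 361 CPM (-1.41), with -1.28 in Cd8-negative cells. Of 9 measured cytotoxic genes 2 were higher (Gzma and Klrc1) and 2 lower (Cx3cr1 and Klrd1), against 0 higher and 16 lower of 20 in Cd8-negative cells. The Gzma ratio compares 1 control cell with 1 Id2-deficient cell, which held nearly all of its UMIs.

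Of the 6 genes named by rank as higher in the Id2-deficient Cd8-expressing cells, 4 were mitochondrial transcripts. The 6, in order of rank, were AY036118, mt-Co3, Gm42418, mt-Atp6, mt-Nd2 and mt-Co1. AY036118 stood at 625 against 99.2 CPM (log2 ratio 2.65), with 2.32 in Cd8-negative cells. The second, mt-Co3, a subunit of cytochrome oxidase, stood at 5664 against 1684 CPM (log2 ratio 1.75), with 1.74 in Cd8-negative cells. The median mitochondrial share was 3.20% and 1.57% in Id2-deficient and control Cd8-expressing cells, and 4.18% and 1.76% in Cd8-negative cells. The part of this difference in the other ratios between libraries was not tested. Among those named as lower were Crip1, Cxcr6, 1810037I17Rik, Atp2b1 and Ass1. Crip1, a LIM protein, stood at 776 against 2587 CPM (-1.74), with -1.65 in Cd8-negative cells.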

How the data were processed

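The deposited tables hold raw UMI counts per gene and barcode, 1 table per library. Per the file headers they were written by Cell Ranger 5.0.1; per the submitters' processing notes by version 1.3, on mm10. The deposited barcodes had been filtered by a rule not given in the sources used here. Both tables list 32285 genes, 40 symbols more than once, and all 228 list symbols were found. Coordinates are from GENCODE M21 (GRCm38).

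Counts were summed over cells and divided by total UMIs (CPM). Ratios have exact conditional binomial intervals and shares Clopper-Pearson intervals, at 95%; thinning was to 1000 UMIs. A count of 0 allows 3 counts. There were no replicates and no tests. Scrublet (scanpy 1.11.5) scored doublets, and none were removed. Genes were named as the 12 highest and 12 lowest in both libraries (6 each way between libraries), by the interval bound nearer to 0, leaving out the Cd8 and CD3 genes and those for which 1 cell held at least 25% of the UMIs, plus receptor genes, Id2, Id3 and leading list genes; some of these are not reported here. Cells and lists were chosen with earlier results of these data known. Scripts (Python 3.11.15, numpy 2.4.6, scipy 1.17.1) were tested on simulated data. Alternatives changed the thresholds, filters, doublet and depth handling, scaling and low-count limit.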

Additional observations from a re-analysis of the deposited data

Results flagged for a closer look

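The ratio of Cd8-expressing over Cd8-negative cells had opposite signs in the 2 libraries for 3 genes. Each interval lies off 0, and the difference between libraries was not tested. Trbc1 had a log2 ratio of 0.48 among control and -0.78 among Id2-deficient cells. The second value rests mostly on Id2-deficient cells with 44, 38 and 37 Trbc1 UMIs. No other Id2-deficient Cd8-expressing cell held more than 15, and several held none, a spread between cells that the interval does not cover. Trac had 0.24 and -0.70. For both genes the Cd8-negative cells of the Id2-deficient library had the higher level, at 1363 against 785 CPM for Trbc1 and 1006 against 563 CPM for Trac. Id2 had -0.37 and 2.23, and the second value rests on 11 UMIs in 4 cells.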

How the results depend on the processing

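Of 157 values under other settings, 141 stayed within the bounds of the value reported, 15 moved outside them and 1 changed sign. The bounds were counting intervals for shares and for ratios of single genes, and came from ranked cell depths for the depth ratios. For list medians they were the medians of the genes' own bounds, which are wide. The control cytotoxic median of 0.82 without 1 cell thus counted as within the bounds of 0.37 to 2.13. At 3 or more Cd8 UMIs the Id2-deficient share was 0.530%, with Cd4 in 20% of cells and a Cd4 log2 ratio of -2.47. With both chains required the control share was 0.438% and the Id2-deficient Cd4 ratio -2.29. Without the 5% of barcodes with the most UMIs the control Cd4 ratio was -0.89 and the Id2 ratio between libraries -1.20. Thinned to 2000 UMIs before the rule, which left out 60 and 27 shallow barcodes, the shares were 0.359% and 0.432% and Cd4 was found in 0% of both. The Cd4 ratios were then bounds of -0.94 and -0.44, and the Id2 ratio was 0.087 (-2.54 to 2.31), from 6 and 3 UMIs, so that its direction is not settled at this depth. With the mean of per-cell CPM the control Cd4 ratio was -0.98. With all genes of at least 1 UMI the Id2-deficient cytotoxic median was 4.29. The settings without shared barcodes, without barcodes rich in dendritic cell genes and without the cell with the most cytotoxic UMIs were chosen after seeing the data. The depth ratio has no value when all barcodes are thinned. No paired analysis was possible because each genotype has 1 library. With 33 and 18 cells, a count of 0 allows up to 9.09% and 16.7% of cells with a UMI.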
